A study of Mus musculus with 6 samples.

Results

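Among 55419 transcript identifiers measured by poly-A RNA-seq in mouse embryonic stem cells, 46 had at most 3 reads summed over the 3 wild-type libraries and 10 reads or more in every one of the 3 libraries without G9a. These limits choose transcripts that were not or barely detected until G9a was lost. The 46 were selected on raw read counts of both genotypes, after leaving out 4 stretches of the table in which neighbouring transcripts were shifted together in the knockout. A further 6 transcripts met the limits inside the left-out stretches and are not described. The word silent would go too far for most of the 46, because 41 had 1 to 3 wild-type reads and 5 had none.

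Both groups were TT2 embryonic stem cells, from a C57BL/6 female crossed with a CBA male, and both were kept in serum-containing medium with LIF, a cytokine that holds them in the undifferentiated state. The wild-type group held 3 libraries labelled TT2, and the knockout group held 3 libraries labelled TT2 G9a-/-, in which both alleles of G9a are disrupted. The labels do not say how many knockout clones were used or whether libraries of a group came from separate cultures. Replicate spread, and every p-value that rests on it, is therefore the spread among these 6 libraries and may be technical. Library totals ran from 5738463 to 9717847 reads, and the 3 wild-type libraries together held 25766858 reads against 23711403 in the knockout libraries.

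G9a, encoded by Ehmt2, works as a heterodimer with its relative GLP and methylates histone H3 at lysine 9 in euchromatin, a mark associated with repressed genes. In embryonic stem cells the pair is known for keeping genes of later lineages and of the germ line off, and G9a is also linked to DNA methylation at some of its targets. Polycomb repressive complex 2 methylates lysine 27 of the same histone, and the series asks how the G9a and GLP enzymes bear on silencing by that complex. RNA levels do not show which transcripts either enzyme acts on directly.

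The table lists UCSC transcript identifiers and does not pair them with gene names. None of the 55419 identifiers was found in the reference tables used here, so no gene, genome position, transcript length or promoter sequence is given for the 46. The knockout was not checked through Ehmt2, and stem cell markers were not analysed here, for the same reason. At most 2 identifiers that rose are named, those with the highest mean knockout level. The others are given by their place in the table, where a row is counted from the first line of data. The rows are in strict alphabetical order of the identifier. Because lengths are not known, levels in CPM (counts relative to the library total, scaled with TMM factors) rank transcripts by reads and not by molecules.

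The 46 transcripts together went from at most 40 reads in a wild-type library to at least 1238 in a knockout library. Their summed reads were 40, 14 and 32 in wild-type replicates 1, 2 and 3, and 1741, 1834 and 1238 in knockout replicates 1, 2 and 3. On the CPM scale the summed wild-type level was 3.20 ± 0.95 and the summed knockout level 206 ± 8.59 (SD, n = 3 each). The pooled ratio of knockout to wild type was 61.5, and 41.8 without the 3 transcripts with the most knockout reads. These values chose the transcripts, so the ratio describes the set and tests nothing. In bulk RNA, a transcript made by few cells and one made weakly by all cells cannot be told apart.

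**Figure D1:**
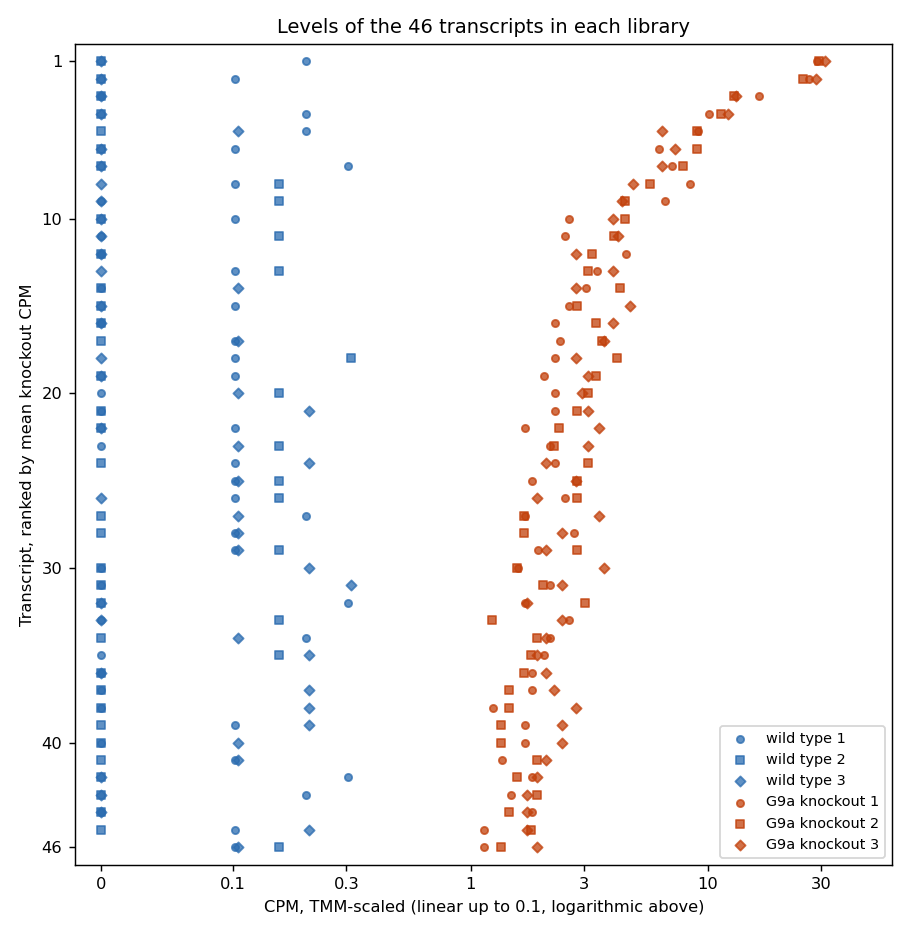
Level of each of the 46 transcripts (rows, ranked by mean knockout CPM) in each of the 6 libraries, on an axis that is linear up to 0.1 CPM and logarithmic above; each point is 1 library. Wild-type points (blue) lie between 0 and 0.314 CPM, and knockout points (orange) between 1.14 and 31.1 CPM.

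No library value of one genotype reached those of the other for any of the 46. The highest wild-type level of any of them in any library was 0.314 CPM, and the lowest knockout level was 1.14 CPM. The limits on reads fix this separation. Among all 12713 transcripts that passed the low-count filter, 25.7% had every knockout library above every wild-type library. All 46 passed that filter, which the high knockout group alone can bring about. All 46 were called higher in the knockout by edgeR (quasi-likelihood F test, adjusted p under 0.05 after Benjamini-Hochberg), where 21.6% of all tested transcripts were called higher. Since the same contrast chose the 46, nothing is read from their count. Their fitted log2 fold changes ran from 3.44 to 9.87 with a median of 4.98, against a median of -0.016 for all tested transcripts.

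In the knockout most of the 46 remained transcripts of few reads. The median of their mean knockout levels was 2.50 CPM (interquartile range 1.95 to 3.52), against 8.69 CPM for all tested transcripts. Of the 46, 42 lay below that value. Their mean knockout levels ran from 1.46 to 29.8 CPM, with 9 transcripts at 5 CPM or more, 4 at 10 or more and 2 at 20 or more. The 3 transcripts with the most reads held 34.4% of the set's 4813 knockout reads and the leading 10 held 58.6%.

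The 2 transcripts of highest knockout level were uc009urk.2 and uc009urj.1, in rows 47252 and 47251 of the table. For uc009urk.2 the wild-type libraries held 2, 0 and 0 reads and the knockout libraries 253, 263 and 179 reads in replicates 1, 2 and 3. Both wild-type reads came from replicate 1, and the knockout libraries all held far more. The wild-type level of uc009urk.2 was 0.0678 ± 0.117 CPM and its knockout level 29.8 ± 1.19 CPM (SD, n = 3 each). Pooled over the 3 libraries of each genotype and divided by the pooled scaled totals, its knockout reads were 382 times its wild-type reads, with a 95% exact binomial interval of 105 to 3157 that covers counting error only.

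The reads of uc009urj.1 were split in nearly the same way. Wild-type replicates 1, 2 and 3 held 1, 0 and 0 reads, and knockout replicates 1, 2 and 3 held 235, 225 and 164. The level in knockout was 26.8 ± 1.62 CPM (SD, n = 3). The edgeR log2 fold change was 8.32 ± 0.30 (standard error) for uc009urk.2 and 8.95 ± 0.32 for uc009urj.1. These are descriptions with no test, since the reads being compared are those that selected both transcripts. Every knockout library was above every wild-type library for both. In the authors' deposited table the log2 fold changes are 6.10 for uc009urk.2 and 6.08 for uc009urj.1. Every one of the 46 has a smaller log2 fold change in the authors' deposited table than in the edgeR fit. The authors' values run from 2.17 to 6.10 with a median of 2.96. All 46 are called higher there too, at adjusted p of 4.89e-05 or below, where 14.3% of the 19161 transcripts with an adjusted p in the authors' deposited table are called higher. Those calls come from the same libraries that chose the 46, so nothing is read from this count either.

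Both named transcripts belong to a place of 5 consecutive rows, 47251 to 47255, with 25 reads over the wild-type libraries and 5981 over the knockout libraries. Of these 5 transcripts 3 are among the 46, the third being row 47254 with 0 wild-type reads and 145, 115 and 76 reads in knockout replicates 1, 2 and 3. The other two missed the wild-type limit and yet held more knockout reads. Row 47253 had 8, 1 and 5 wild-type reads and 946, 1112 and 640 knockout reads. Row 47255 had 2, 2 and 4 wild-type reads and 580, 638 and 410 knockout reads. The 3 chosen transcripts thus held 27.7% of the knockout reads of their own place. The adjoining rows 47250 and 47256 held 0 and 2 reads over all libraries. No source used here says whether these 5 identifiers overlap in the genome or were counted from the same reads.

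Row 47253 rose from a wild-type level of 0.498 CPM to a knockout level of 114 CPM, by 7.68 ± 0.17 on the log2 scale (standard error, edgeR adjusted p = 7.89e-18). Row 47255 rose from 0.311 to 69.5 CPM, by 7.74 ± 0.18 (edgeR adjusted p = 2.03e-17). Neither showed any overlap between the genotypes, as was so for 25.7% of all tested transcripts. The read limits chose neither of them, but they lie between or beside transcripts that were and may share reads with them. Both were picked after their values were seen and can pass the low-count filter through knockout reads alone. Their p-values are therefore no separate support for the chosen transcripts.

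**Figure D2:**
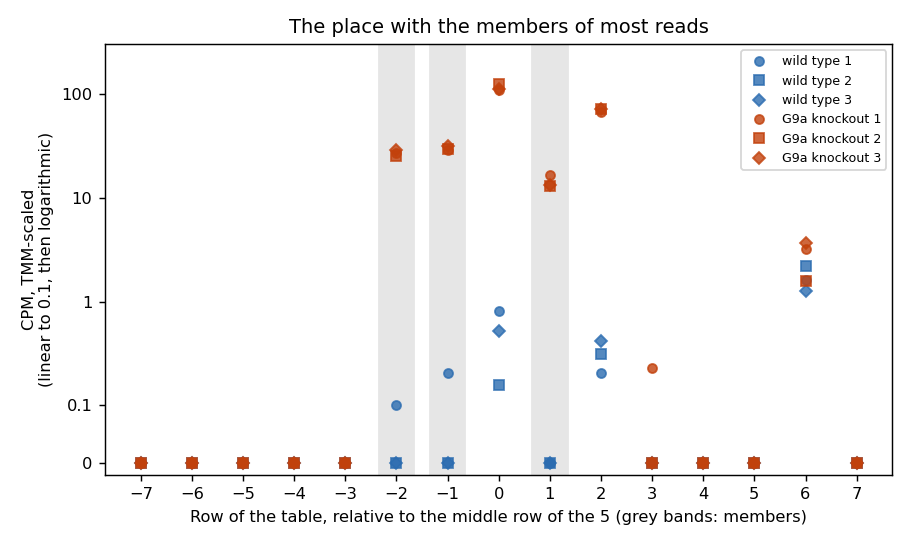
Level in each library for 15 rows of the table centred on the middle row of the 5 consecutive rows described in the text, on an axis linear up to 0.1 CPM and logarithmic above; points are libraries and grey bands mark the 3 chosen transcripts. In all 5 consecutive rows knockout levels are at 12.9 CPM or more and wild-type levels are below 1 CPM.

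The 5 transcripts with 0 reads in every wild-type library had quite different knockout levels. Zero reads over the 3 wild-type libraries allow a level of up to 0.116 CPM (3 reads over the group). Against that floor, and with knockout reads pooled over the 3 libraries and divided by their pooled scaled total, row 47254 was at least 123-fold higher in the knockout. Its mean over the knockout libraries was 14.2 ± 1.98 CPM (SD, n = 3). Row 36010, with 40, 29 and 16 knockout reads, was at least 31.1-fold higher. Row 10327, with 20, 30 and 23 reads, was at least 26.7-fold higher. The others, row 53547 with 16, 15 and 12 reads and row 46146 with 16, 13 and 10, were at least 15.7-fold and 14.3-fold higher. Only the first of these 5 exceeded 5 CPM in the knockout. These fold values too rest on the reads that chose the transcripts and test nothing.

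Of the other 41, 11 had 1 wild-type read, 15 had 2 and 15 had 3. Their ratios of pooled knockout to pooled wild-type reads, each divided by the scaled totals, ran from 12.1 to 685 with a median of 31.8. The smallest was row 34779, with 1 read in each wild-type library and 10, 12 and 11 in the knockout libraries, where the 95% counting interval of the ratio was 3.79 to 61.6. That lower bound was the lowest among the 41. The reads behind these ratios and intervals also selected the transcripts, so they are descriptions and no bound is a tested lower limit. At the upper end, after the named transcripts, row 10273 had 1, 0 and 0 wild-type reads and 55, 80 and 42 knockout reads, a ratio of 194 with a counting interval of 34.4 to 7720. Row 10325 had 2, 0 and 0 against 89, 101 and 70, a ratio of 143 with an interval of 39.1 to 1185. With so few wild-type reads the intervals are wide, and those of rows 10273 and 10325 overlap.

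The few wild-type reads of the 46 were spread over all 3 libraries. Wild-type replicate 1 held 46.5% of the 86 reads (Wilson 95% interval 36.3 to 57.0), where its share of all wild-type reads was 37.7%. Replicate 2, the shallowest, held 16.3% (interval 9.95 to 25.5) against 25.1% of all reads. Replicate 3 held 37.2% (interval 27.7 to 47.8) against 37.1%. Each interval includes the share that depth alone would give. Of the 46 transcripts, 28 had a read in replicate 1, 13 in replicate 2 and 22 in replicate 3. The wild-type reads lay in 1 library for 22 transcripts, in 2 libraries for 16 and in all 3 for only 3.

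Within the knockout, how the reads of a transcript were split among the 3 libraries was not used by the limits beyond the minimum of 10. The 46 together took 36.2%, 38.1% and 25.7% of their knockout reads from replicates 1, 2 and 3, against 37.1%, 38.7% and 24.2% of all knockout reads. The share of replicate 3 had a Wilson 95% interval of 24.5 to 27.0, and 22 of the 46 had their highest knockout CPM in that library, against 10 in replicate 1 and 14 in replicate 2. That interval lies just above the 24.2% that depth alone would give. Replicate 3 is the shallowest knockout library, where 10 reads correspond to the highest CPM. Whether the read limit bears on these numbers was not tested. The CV of the 3 knockout levels ran from 4.0% to 52.6% with a median of 22.4%. In 5 of the 46 the highest knockout library was more than 2 times the lowest, and the largest such ratio was 2.32.

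None of the 46 departed from the library totals by more than counting error (chi-square test on the 3 knockout counts, Benjamini-Hochberg adjusted p under 0.05 over 12011 transcripts with at least 30 knockout reads). Over all transcripts tested 10.6% passed this threshold. At an unadjusted p under 0.05 there were 3 of the 46 (6.52%), against 22.8% of all transcripts tested. Another 6536 transcripts had 33 to 695 knockout reads, the range of the 46, and 10 or more in every knockout library. Of these, 3.93% passed the adjusted threshold and 13.5% the unadjusted one. Only the range was matched and not the spread of read numbers within it, where the median of the 46 was 57.5. The smallest adjusted p among the 46 was 0.0748, for row 48973 with 14, 14 and 21 reads in knockout replicates 1, 2 and 3. Next came row 10275, with 74, 51 and 28 reads (adjusted p = 0.0956). At these read numbers only a large imbalance can be detected, so the result does not show that the 3 libraries held equal levels.

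A choice on fewer libraries allowed the rest to be looked at as libraries the limits had not used. The same limits were applied to 2 wild-type and 2 knockout libraries, in all 9 ways, which chose 65 to 110 transcripts. In the 2 libraries left out, the knockout level was above the wild-type level for between 97.2% and 100% of them. Each choice held all 46, which meet the limits in the left-out libraries too, so for them this was fixed. The shares and medians given here include the 46 and are in good part fixed with them. No values without the 46 are given. No like share over all transcripts was computed. The median level in the left-out libraries was 0 to 0.105 CPM in wild type and 2.08 to 2.80 CPM in knockout. Among the 65 chosen without replicate 2 of either genotype, all 65 were higher in the left-out knockout library, which held at least 7 reads of each, while the left-out wild-type library held at most 4. In the weakest case, without wild-type replicate 1 and knockout replicate 3, it was 106 of 109. There 69 of the 109 had 10 or more reads in the left-out knockout library. Across the 9 choices the left-out wild-type library held up to 24 reads of a chosen transcript, and the left-out knockout library as few as 0. With 1 left-out library per genotype these values have no test.

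The limits cut through a continuous range. Of transcripts outside the left-out stretches, 31717 had at most 3 wild-type reads, and 26014 of these had no knockout read either. At most 3 knockout reads were found for 95.2% of the 31717, and the 46 are 0.145%. The 15 transcripts with exactly 3 wild-type reads had 33 to 197 knockout reads. Just outside, 13 transcripts had 4 wild-type reads and met the knockout limit, with 33 to 440 knockout reads. On the other limit, 10 of the 46 had 10 or 11 reads in their lowest knockout library and 33 to 58 knockout reads in all, and 20 transcripts just outside had 8 or 9, with 25 to 50 in all.

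**Figure D3:**
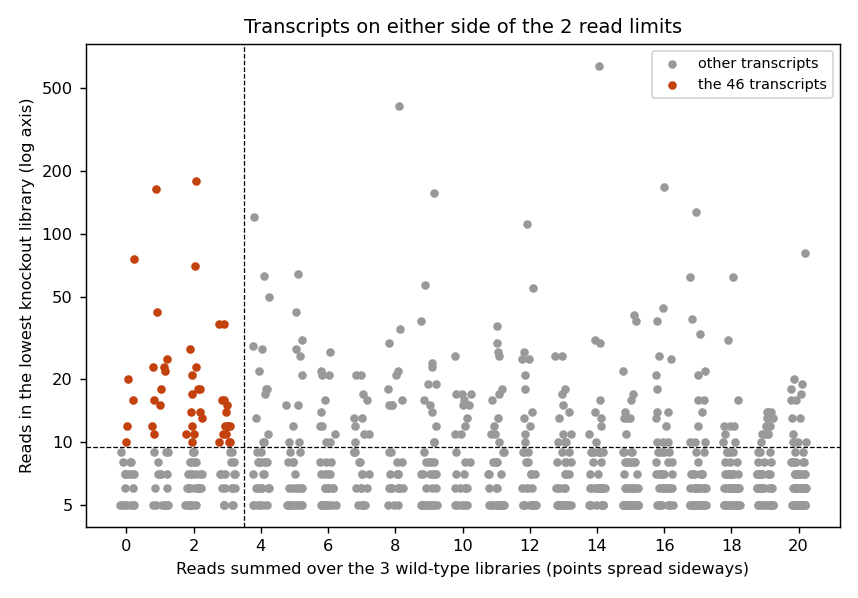
Reads in the lowest knockout library (logarithmic axis) against reads summed over the 3 wild-type libraries, for transcripts with up to 20 wild-type reads and 5 or more reads in every knockout library; dashed lines mark the limits, and points are spread sideways. The 46 (orange) fill the upper left corner, and other transcripts (grey) continue on both sides of the lines without a gap.

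In the opposite direction the same limits chose 1 transcript, uc007era.1, singled out after its values were seen. It had 19, 11 and 14 reads in wild-type replicates 1, 2 and 3 and 0 in every knockout library. Its wild-type level was 1.70 ± 0.233 CPM (SD, n = 3), and in the knockout it was at least 13.4-fold lower, taking 3 reads over the knockout libraries as the floor, again a value that its selection fixed.

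Transcripts listed close to the 46 were not chosen by the limits, and a number of them rose as well. The 46 lay at 39 separate places of the table, taking those within 5 rows of each other as 1 place. At 6 places there was more than 1 of them, 13 transcripts in all. The rows within 5 of any of the 46 numbered 391, not counting the 46 themselves, and 180 of these had no read in any library. Of the 86 that were tested, 42 rose and 5 fell (edgeR adjusted p under 0.05), which is 48.8% and 5.81%. Among all tested transcripts 21.6% rose and 18.4% fell. Unlike the neighbours, these include the left-out stretches, whose transcripts were shifted together in the knockout, and no background without the stretches is given. A neighbour can pass the low-count filter through its knockout reads alone. With no such filter 51 of 211 neighbours with a read rose, 24.2% against 10.6% of all transcripts with a read.

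Among the 86 neighbours, 20 rose at least 4-fold (2 on the log2 scale), which is 23.3%, against 3.08% of all tested transcripts. The median log2 fold change of the 86 was 0.32. In the directly adjoining rows 15 of 21 tested transcripts rose (71.4%), and within 10 rows 67 of 178 did (37.6%). The low-count filter, which a neighbour can pass through knockout reads alone, bears on all of these shares. No share without it is given for the 4-fold rise, the adjoining rows or the rows within 10. Identifiers listed side by side can be transcripts of the same gene and can share reads, so these shares are a description, and neighbours are not independent of the 46.

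**Figure D4:**
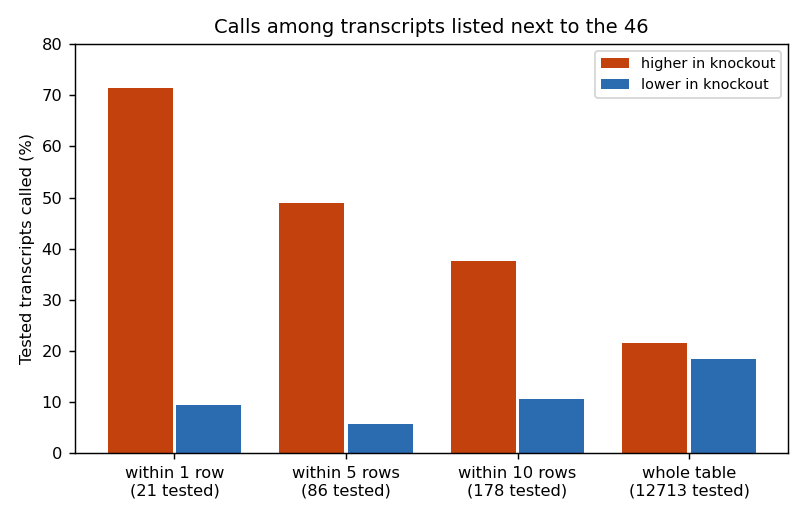
Share of tested transcripts called higher (orange) or lower (blue) in the knockout (edgeR adjusted p under 0.05) among rows within 1, 5 or 10 rows of the 46, leaving out the 46 themselves, and over the whole table. The share called higher is 71.4%, 48.8% and 37.6% in the 3 windows and 21.6% over all tested transcripts. The whole table includes the left-out stretches, and the windows do not.

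At 2 of the 6 places with more than 1 of the set, a transcript that rose and that the limits left out lay between chosen ones. One is row 47253, described above. The other, row 10326, between the chosen rows 10325 and 10327, had 0 wild-type reads and 18, 21 and 8 reads in knockout replicates 1, 2 and 3, and was left out by the last of these. It was at least 17.2-fold higher against the floor of 3 wild-type reads (edgeR adjusted p = 3.65e-06). Row 27415, before the chosen row 27416 and not between chosen rows, had 1, 2 and 2 wild-type reads against 65, 55 and 31 knockout reads. It rose by 4.93 ± 0.38 on the log2 scale (standard error, edgeR adjusted p = 1.68e-09). Row 27414 next to it had 1, 1 and 2 wild-type reads and 15, 18 and 8 knockout reads. These rows too were picked after their values were seen and may share reads with chosen ones.

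At other places the rows between chosen transcripts held hardly any reads. Row 27417, between the chosen rows 27416 and 27418, had 0 wild-type reads and 0, 4 and 0 knockout reads. Rows 10273 and 10275 had 177 and 153 knockout reads, and row 10274 between them had 1. Rows 46137 and 46140 had 123 and 48, and the 2 rows between them had 0 reads in all 6 libraries. Rows 46995 and 46996 adjoined each other with 75 and 48 knockout reads and 1 wild-type read each.

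The wild-type activity around the 46 was far from uniform. For 15 of them every other row within 5 lay under 1 CPM in wild type, leaving the rest of the 46 out of the comparison. For 21 at least 1 such row had 10 CPM or more in wild type, and for 7 at least 1 had 100 CPM or more. Around these 21, the neighbouring row with the highest wild-type level rose in 11 cases, fell in 1 and did not pass the edgeR threshold in 9. Its log2 fold change had a median of 0.14 and ran from -0.33 to 2.53. The share of calls among all transcripts at such wild-type levels was not computed, so these counts have no like background.

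Examples show both kinds of surroundings. Row 10325 rose from 2 to 260 reads, while row 10320, at 123 CPM in wild type, had a log2 fold change of -0.05 that did not pass the threshold (edgeR adjusted p = 0.49). Row 11733 had 3, 0 and 0 wild-type reads against 15, 27 and 10 knockout reads, and row 11731 rose from 554 to 780 CPM, by 0.49 on the log2 scale. Row 23302 had 0, 1 and 1 wild-type reads against 20, 28 and 17, and the adjoining row 23303 rose from 48.7 to 282 CPM, by 2.53 on the log2 scale. By contrast, row 50030, with 0, 1 and 1 wild-type reads and 19, 20 and 18 knockout reads, had no read at all in the other 10 rows around it.

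For 12 of the 46 no row within 5 was either another of the set or a transcript that rose, and for 6 of these 12 no neighbour was tested at all. The mean knockout levels of the 12 ran from 1.46 to 7.10 CPM with a median of 2.23. The highest of them, row 23089, had 3, 0 and 0 wild-type reads and 62, 70 and 37 knockout reads. For 38 of the 46 some row within 5 that was not one of the set had a higher mean knockout level than the transcript itself.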

How the data were processed

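RNA was measured in 6 poly-A libraries, 3 per genotype. The submitters' processing notes name mm9 as build, and Bowtie (0.12.7), R (2.12.1) and DESeq2 as tools with no role stated. No source used here gives the read counter, the strand setting or the handling of reads that align more than once. The deposited read counts per UCSC identifier are raw whole numbers. Deposited normalized values, a score here, are counts the authors divided by a library factor and rounded, per the file headers and values; they were not used. The authors' deposited log2 fold changes and p-values were set beside the new ones.

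Counts were filtered with filterByExpr, scaled with TMM and tested with the edgeR 4.0.16 quasi-likelihood test (R 4.3.3, no covariate), checked on simulated data, with Benjamini-Hochberg adjustment over 12713 transcripts at 0.05. Standard errors come from the F value. DESeq2 1.42.0, other scalings, filters, a replicate block and left-out libraries were alternatives. Intervals and floors cover counting error only. The transcripts, limits and lists were chosen with earlier results of these data known. The naming rule took the 2 highest mean knockout levels, as no gene names matched; marker and gene lists could not be used. Rows other than these 2 were picked after their values were seen.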

Additional observations from a re-analysis of the deposited data

How the results depend on the processing

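The number of transcripts meeting the limits depends on the limits: 5 with 0 wild-type reads, 81 with at most 6, 131 with at least 5 reads in each knockout library and 15 with at least 20. It was 39 with reads scaled to the lowest library total, 43 with libraries thinned to it (chosen after seeing the data) and 52 with the left-out stretches kept. Leaving out 1 library gave 51 to 78, with 78 without wild-type replicate 3, 70 without knockout replicate 3 and 69 without wild-type replicate 1. Fewer libraries make the limits looser by construction. All 46 were called higher in each of the 13 alternatives, including DESeq2 (adjusted p up to 0.00533) and each library left out (up to 0.00165). These alternatives called 7.63% (DESeq2) to 22.9% (replicate block) of all fitted transcripts higher. The same contrast chose the 46, so nothing is read from their count. Over all transcripts the number lower was 1440 with DESeq2 against 2336, and upper-quartile factors gave 2411 higher and 2774 lower; the cause was not tested. The number of neighbours that rose was 37 to 51 over the other fits. Its share fell from 48.8% of 86 to 24.2% of 211 with no low-count filter (all transcripts 10.6%). In DESeq2 it was 44 of 118 neighbours with an adjusted p. With fitted transcripts that lack an adjusted p counted in, that was 20.9% of neighbours against 7.63% of all transcripts. In the main fit the number of neighbours that rose was 15 within 1 row and 67 within 10, windows chosen after seeing the data. No count of knockout imbalance among the 46 differed from 0 under its alternatives, with 3 to 6 at an unadjusted p under 0.05. Over all transcripts these alternatives called between 1.95% and 10.9%, and between 12.3% and 23.3% unadjusted. The named levels and the median moved by less than their SD under other scalings. Without wild-type replicate 1, which held all wild-type reads of both, the log2 fold changes rested on no wild-type read, 10.9 for uc009urk.2 and 10.7 for uc009urj.1. Same-numbered libraries were not treated as pairs, since their deviations correlated at 0.068, 0.090 and 0.023, although every library's best match carried its own number. With the replicate block 2917 rose, 2531 fell and all 46 stayed higher. The depth limits mainly the fold changes, which rest on 3 or fewer wild-type reads.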
